A study of Mus musculus with 9 samples.

Results

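The genes described here are 36 that mark the cells lining blood vessels (endothelium) and the barrier those cells form between blood and nervous tissue, out of 14831 genes in the table of a mouse spinal cord RNA-seq study. They were taken by symbol from a list of 36, and kept where the value was 0.5 or more in at least 3 of the 9 libraries; all 36 had a row and all passed. The mice were wild-type females aged 10 weeks (8 of the 9 samples are labelled with the strain C57Bl/6, and all 9 with that source). Each was injected with 10 µl in the right lateral ventricle, a fluid space of the brain, and the cord was taken 2 weeks later. There were 3 libraries after 500 µg of an antisense oligonucleotide (ASO) against mouse C9orf72, 3 after 500 µg of a control ASO and 3 after saline with no ASO. An ASO is a short modified nucleic acid strand that pairs with its target RNA and lowers it. A repeat expansion in C9orf72 causes inherited frontotemporal dementia and amyotrophic lateral sclerosis, and the study, by its title, concerns ASOs against C9orf72 RNA as a therapy. Nothing in the labels says whether the 3 libraries of a group are 3 animals, so the p-values measure the spread between these samples, which may be technical.

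In the brain and spinal cord, endothelial cells are sealed to each other by tight junctions and carry few vesicles across. They take up glucose, amino acids and lipids through dedicated transporters and pump many drugs back into the blood. This state is kept up by vascular growth factor receptors, by transcription factors of the ETS and SOX families and by Wnt signals acting through beta-catenin. Several of the 36 genes are not restricted to endothelium in nervous tissue: Bsg is broadly expressed, Slc16a1 is also found in oligodendrocytes and Slco1c1 in astrocytes.

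The targeted gene was lower in the libraries labelled C9orf72 ASO. C9orf72 was at 2.68, 3.40 and 3.12 RPKM (reads per kilobase of transcript, scaled to library size) in the C9orf72 ASO libraries, at 11.2, 11.7 and 10.6 RPKM in the control ASO libraries and at 10.5, 11.4 and 11.5 RPKM in the saline libraries. Its log2 fold change was -1.83 against saline (SE 0.08, adjusted p = 1.9e-06, limma) and -1.84 against the control ASO (SE 0.08, adjusted p = 1.8e-06). The smallest steps in the values of short genes put the depth at 90.4 to 123.9 M reads a library. Every gene with no value of 0.5 RPKM or more in a library is listed there at 0.1, called the floor here, and no value lies between. Of 14 marker genes for spinal cord, 13 were analysed and none was at the floor in all libraries, with a sum of 5636 to 6355 RPKM in C9orf72 ASO libraries, 5902 to 6179 in control ASO libraries and 6009 to 7003 in saline libraries. No pair of libraries was identical, and the lowest correlation of log2 values between libraries was 0.9838.

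In C9orf72 ASO libraries all 36 genes had a mean below that of saline, at 40.6% (Sox18) to 98.6% (Abcg2) of it, with a median of 72.8%. Of all genes tested, 58.7% had a log2 fold change below 0. None of the 36 passed the threshold of a Benjamini-Hochberg adjusted p under 0.05 over 14430 genes (limma), where 0.0693% of all genes did so, 0.0347% lower and 0.0347% higher. At an unadjusted p under 0.05, 24 of the 36 were lower and 0 higher, against 10.2% of all genes lower and 3.79% higher. In 24 of the 36 the C9orf72 ASO values lay entirely below the saline values, as in 12.4% of all genes, and in 0 entirely above, as in 5.61% of all genes. With length and GC trends removed from each library the count lower was 24 again, against 4.62% of all genes. The median log2 fold change of the 36 genes was -0.41, against -0.03 over all genes tested. The study measures whole tissue, in which fewer endothelial cells and less RNA of these genes per cell cannot be told apart.

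Libraries within a group differed in these genes. Saline replicate 1 was the highest of the 9 libraries for 27 of the 36 genes, while control ASO replicate 3 was the lowest for 12, C9orf72 ASO replicate 1 for 12 and C9orf72 ASO replicate 2 for 10. Such counts over all genes are not given here, so that these need not be particular to the 36 genes. The sum over all genes in the table was also highest in saline replicate 1, at 423387 RPKM. Without saline replicate 1 the count lower at an unadjusted p under 0.05 was 15, against 7.55% of all genes, and the median was -0.33. Without control ASO replicate 3, which belongs to neither group but adds to the shared estimate of the spread, 3 genes passed the threshold: Flt1 (adjusted p = 0.0285), Abcb1a (adjusted p = 0.0291) and Pecam1 (adjusted p = 0.0465, limma). At an unadjusted p under 0.05, 25 genes were then lower, against 9.2% of all genes. The share of all genes past the adjusted threshold without these libraries is not given here. With both libraries left out, a pair chosen by the levels of these very genes, Flt1 and Pecam1 passed (adjusted p = 0.0348 each), 17 genes were lower at an unadjusted p under 0.05, against 6.3% of all genes, and the median was -0.33.

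**Figure D1:**
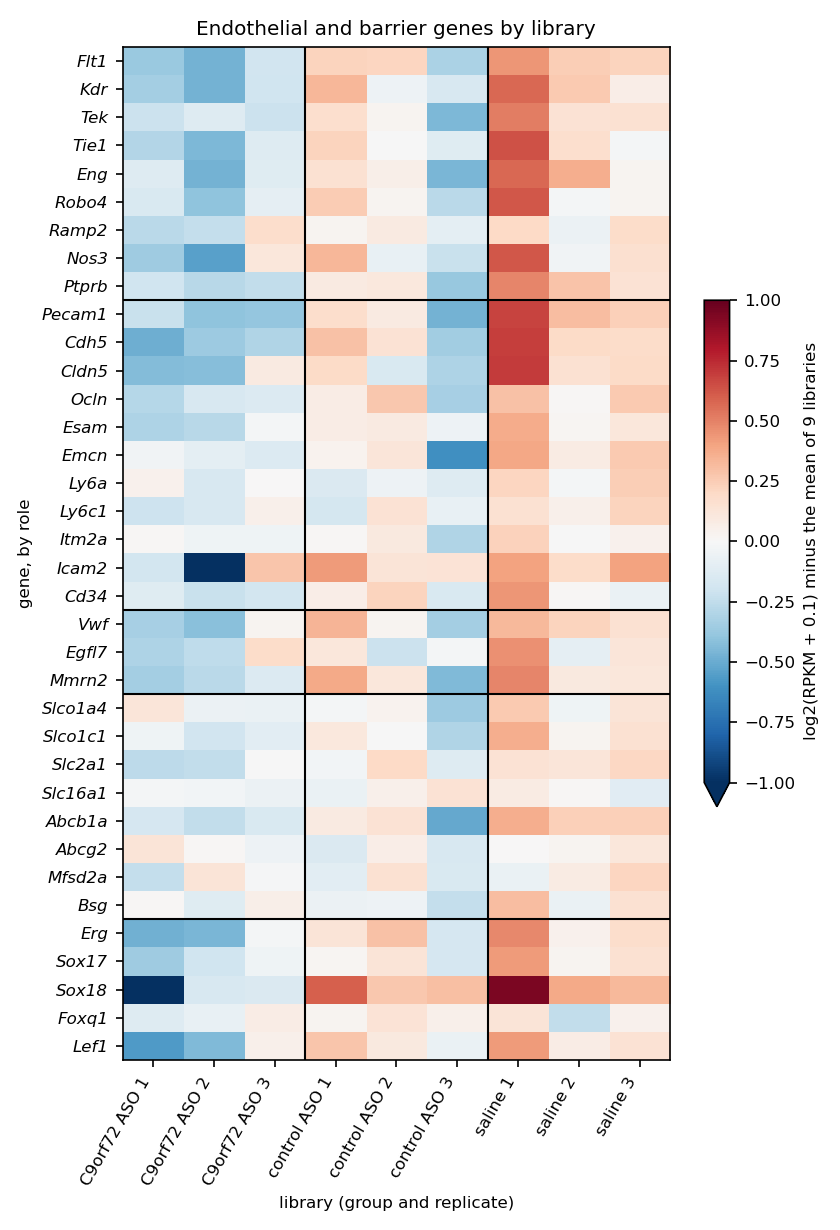
Level of each of the 36 genes (rows, grouped by role) in each of the 9 libraries (columns), as log2(RPKM + 0.1) minus the mean of the gene over the 9 libraries; blue is lower and red higher. Saline replicate 1 is the highest library for 27 genes, and the C9orf72 ASO columns are mostly blue, with single dark cells where Sox18 and Icam2 were at the floor.

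Promoters are shown for the 3 genes with the smallest p and the 2 with the highest p against saline among genes with 1 start site in the table, to set genes of this list that differ in response side by side. The sequences are from RefSeq on build GRCm38.p6, whereas the submitters' notes name mm9 for the reads, and run from 250 bases before to 50 bases after the start. Entries were matched for 22 of the 36 genes. Flt1 lies at chr5:147725962-147726261, minus strand, Kdr at chr5:75978406-75978705, minus strand, Slc2a1 at chr4:119108495-119108794, plus strand, Slco1a4 at chr6:141856171-141856470, minus strand and Slc16a1 at chr3:104638414-104638713, plus strand. Capitals mark matches, on either strand, to the letters AGGAAG (ETS factors, such as Erg), AACAAT (SOX), CTTTGA (TCF and LEF) or TAAACA (FOX).
Flt1: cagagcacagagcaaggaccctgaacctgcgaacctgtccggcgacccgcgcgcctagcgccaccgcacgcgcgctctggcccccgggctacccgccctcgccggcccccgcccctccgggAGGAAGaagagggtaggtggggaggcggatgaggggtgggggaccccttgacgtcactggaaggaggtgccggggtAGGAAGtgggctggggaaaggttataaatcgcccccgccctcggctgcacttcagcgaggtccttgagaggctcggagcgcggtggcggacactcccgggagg
Kdr: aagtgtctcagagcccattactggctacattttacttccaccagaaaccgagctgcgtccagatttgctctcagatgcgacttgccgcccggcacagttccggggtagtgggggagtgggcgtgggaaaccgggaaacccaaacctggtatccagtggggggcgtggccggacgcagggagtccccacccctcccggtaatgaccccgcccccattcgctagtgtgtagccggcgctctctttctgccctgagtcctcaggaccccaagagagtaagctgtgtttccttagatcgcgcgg
Slc2a1: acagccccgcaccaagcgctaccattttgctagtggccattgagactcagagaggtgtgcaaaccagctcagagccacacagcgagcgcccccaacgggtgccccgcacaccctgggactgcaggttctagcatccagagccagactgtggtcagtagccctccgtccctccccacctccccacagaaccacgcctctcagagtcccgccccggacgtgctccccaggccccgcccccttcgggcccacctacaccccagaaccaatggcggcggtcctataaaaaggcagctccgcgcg
Slco1a4: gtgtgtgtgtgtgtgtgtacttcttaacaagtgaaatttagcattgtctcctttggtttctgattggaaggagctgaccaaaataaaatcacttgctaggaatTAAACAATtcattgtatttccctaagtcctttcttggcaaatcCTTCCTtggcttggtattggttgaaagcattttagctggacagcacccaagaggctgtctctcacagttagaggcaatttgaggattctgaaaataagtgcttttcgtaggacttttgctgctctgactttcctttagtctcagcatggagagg
Slc16a1: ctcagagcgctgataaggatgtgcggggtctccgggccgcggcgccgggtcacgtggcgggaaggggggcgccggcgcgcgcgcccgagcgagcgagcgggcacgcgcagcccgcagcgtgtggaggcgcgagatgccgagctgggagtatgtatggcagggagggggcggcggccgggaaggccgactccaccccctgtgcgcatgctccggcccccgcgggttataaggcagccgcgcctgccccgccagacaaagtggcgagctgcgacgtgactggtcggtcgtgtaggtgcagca
The Flt1 window held 2 ETS matches. Kdr, Slc2a1 and Slc16a1 held no match to any of the 4 motifs, and Slco1a4 held 1 ETS match and 1 SOX match that overlaps 1 FOX match. Over the 22 genes, taking the first listed start of each, ETS letters were present in 12 (54.5%), against 35.1% of 27025 genes. SOX letters were in 3 (13.6% against 10.9%), TCF and LEF letters in 4 (18.2% against 16.2%) and FOX letters in 4 (18.2% against 13.4%). A match is a description of the letters and not a binding site.

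Among receptors and signalling genes, 7 of 9 were lower after the C9orf72 ASO than after saline at an unadjusted p under 0.05, against 10.2% of all genes. Their median log2 fold change was -0.54, against -0.03 over all genes tested. Flt1, a receptor for vascular endothelial growth factor (VEGF), was at 7.82, 7.27 and 8.85 RPKM in C9orf72 ASO libraries, 11.9, 11.8 and 8.11 RPKM in control ASO libraries and 13.8, 12.1 and 11.9 RPKM in saline libraries. Its C9orf72 ASO values all lay below its saline values, and control ASO replicate 3 lay among the C9orf72 ASO values. Its log2 fold change against saline was -0.65 (SE 0.13, 95% interval -0.94 to -0.36, adjusted p = 0.113, limma), the smallest p of the 36 genes. Kdr, the main signalling receptor for VEGF, was at 1.62, 1.48 and 1.80 RPKM in C9orf72 ASO libraries, 2.65, 2.00 and 1.85 RPKM in control ASO libraries and 3.14, 2.51 and 2.18 RPKM in saline libraries. The C9orf72 ASO libraries were the lowest 3 of the 9 for Kdr, with -0.64 for its log2 fold change against saline (SE 0.15, adjusted p = 0.152). Ptprb, a phosphatase that acts on the receptor Tek and on endothelial junctions, was at 3.03, 2.86 and 2.94 RPKM in C9orf72 ASO libraries, 3.72, 3.77 and 2.66 RPKM in control ASO libraries and 4.93, 4.28 and 3.86 RPKM in saline libraries. Both ASO groups lay below saline for Ptprb, at log2 fold changes of -0.54 (adjusted p = 0.152) for the C9orf72 ASO and -0.37 (adjusted p = 0.794) for the control ASO.

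The remaining receptors and signalling genes had lower means after the C9orf72 ASO too, without passing the threshold. Tie1 and Tek, which form the receptor system for angiopoietins, averaged 1.13 ± 0.138 and 2.40 ± 0.0883 RPKM after the C9orf72 ASO and 1.73 ± 0.442 and 3.36 ± 0.528 RPKM after saline (SD, n = 3). Eng, a co-receptor for ligands of the transforming growth factor family, averaged 2.77 ± 0.384 RPKM after the C9orf72 ASO and 4.16 ± 0.802 RPKM after saline. For these 3 genes the groups did not overlap. Nos3, which makes nitric oxide in endothelium, averaged 0.98 ± 0.262 against 1.44 ± 0.374 RPKM, and Robo4, a guidance receptor of vessels, 0.844 ± 0.106 against 1.19 ± 0.334 RPKM. The C9orf72 ASO values of Robo4 also lay below its saline values, while those of Nos3 overlapped saline. Ramp2, a subunit of the adrenomedullin receptor, had the smallest difference of the role, with a log2 fold change of -0.22 (95% interval -0.48 to 0.04).

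Junction and cell surface genes held the lowest fold changes among genes with no library at the floor, those of Pecam1 and Cdh5. Pecam1, an adhesion molecule at contacts between endothelial cells, was at 3.11, 2.73 and 2.76 RPKM in C9orf72 ASO libraries, 4.13, 3.89 and 2.60 RPKM in control ASO libraries and 5.87, 4.55 and 4.32 RPKM in saline libraries. The libraries of each ASO group lay below all saline libraries, and control ASO replicate 3 was the lowest of the 9. The log2 fold change of Pecam1 was -0.75 for the C9orf72 ASO against saline (SE 0.16, 95% interval -1.10 to -0.39, adjusted p = 0.118, limma). Cdh5, the cadherin of endothelial adherens junctions, was at 1.85, 2.03 and 2.12 RPKM in C9orf72 ASO libraries, 3.25, 2.92 and 2.05 RPKM in control ASO libraries and 4.33, 3.04 and 3.01 RPKM in saline libraries. It stood at -0.74 against saline (SE 0.17, adjusted p = 0.137), and its control ASO libraries overlapped both other groups. Cldn5, the claudin that seals tight junctions of the barrier, was at 3.68, 3.70 and 5.35 RPKM in C9orf72 ASO libraries, 5.73, 4.50 and 4.02 RPKM in control ASO libraries and 8.18, 5.59 and 5.73 RPKM in saline libraries. C9orf72 ASO replicate 3 was close to the lower saline libraries, and the log2 fold change of Cldn5 was -0.60 (SE 0.18, adjusted p = 0.222).

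Of the other junction and surface genes, all but Icam2 had smaller differences. Ocln, a further tight junction protein, averaged 1.90 ± 0.108 RPKM in C9orf72 ASO, 2.22 ± 0.476 RPKM in control ASO and 2.51 ± 0.27 RPKM in saline libraries (SD, n = 3 each). Esam, an adhesion molecule of endothelial contacts, averaged 3.31 ± 0.381, 3.91 ± 0.214 and 4.31 ± 0.562 RPKM after the C9orf72 ASO, the control ASO and saline. The sialomucins Emcn and Cd34 had log2 fold changes of -0.33 (adjusted p = 0.383) and -0.31 (adjusted p = 0.313) for the C9orf72 ASO against saline. Emcn was at 2.63, 2.5 and 2.44 RPKM in C9orf72 ASO libraries, 2.75, 2.94 and 1.72 RPKM in control ASO libraries and 3.54, 2.85 and 3.25 RPKM in saline libraries, so that control ASO replicate 3 alone stood well under the rest. Ly6a, a surface protein anchored by a lipid, was at 12.8, 11.1 and 12.4 RPKM in C9orf72 ASO libraries, 11.3, 12 and 11.4 RPKM in control ASO libraries and 14.5, 12.3 and 14.8 RPKM in saline libraries. The control ASO libraries of Ly6a lay just below all saline libraries, and the C9orf72 ASO libraries overlapped saline. Ly6c1, of the same family, had -0.25 (adjusted p = 0.273) and Itm2a, a membrane protein, -0.11 (adjusted p = 0.636); genes of the Ly6 family are near-identical in part, and how reads were split between them is not given in the sources used here. Icam2, a ligand for leukocyte integrins, was at the floor in C9orf72 ASO replicate 2, and its log2 fold change of -0.89 was -0.36 with floor values raised to 0.5 RPKM.

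**Figure D2:**
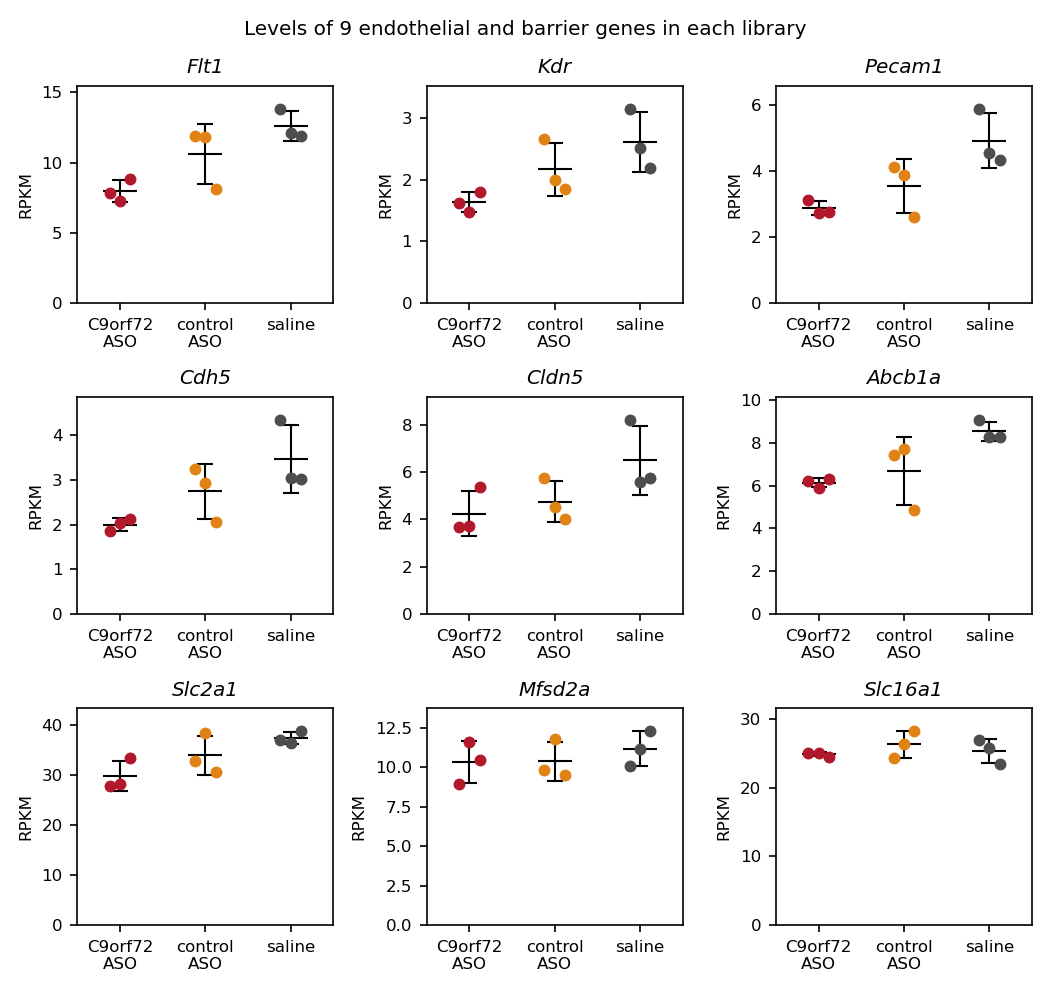
RPKM of 9 of the genes in each library (points), with the mean and SD of each group of 3 (bar and whiskers); each axis starts at 0. For Flt1, Kdr, Pecam1, Cdh5, Cldn5, Abcb1a and Slc2a1 all C9orf72 ASO points lie below the saline points, and for Mfsd2a and Slc16a1 the 3 groups overlap.

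Of the secreted and matrix genes, Vwf and Mmrn2 were low in this tissue, with means over the 9 libraries of 0.737 and 0.954 RPKM, and Egfl7 had 5.33 RPKM. Vwf, the clotting factor stored in endothelial granules, was at 0.555, 0.514 and 0.739 RPKM in C9orf72 ASO libraries, 0.942, 0.737 and 0.548 RPKM in control ASO libraries and 0.93, 0.857 and 0.813 RPKM in saline libraries. The C9orf72 ASO values lay below those of saline and near the floor threshold of 0.5 RPKM, and the log2 fold change of Vwf was -0.47 (SE 0.21, adjusted p = 0.354, limma). Mmrn2, a matrix glycoprotein of vessels, had -0.48 (adjusted p = 0.329), and Egfl7, a secreted vascular factor, -0.29 (adjusted p = 0.427).

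Transporters had the median closest to 0 of the 5 roles for the C9orf72 ASO against saline. It was -0.14, against -0.03 over all genes tested. At an unadjusted p under 0.05, 3 of 8 were lower (Slc2a1, Abcb1a and Slco1c1), against 10.2% of all genes. Slc2a1, the glucose transporter of the barrier, was at 27.9, 28.2 and 33.4 RPKM in C9orf72 ASO libraries, 32.8, 38.4 and 30.7 RPKM in control ASO libraries and 37.0, 36.5 and 38.8 RPKM in saline libraries. The C9orf72 ASO values lay below those of saline, and the control ASO values spanned the gap, at a log2 fold change of -0.33 (SE 0.09, 95% interval -0.53 to -0.13, adjusted p = 0.207, limma) for the C9orf72 ASO. Abcb1a, the P-glycoprotein efflux pump, was at 6.23, 5.88 and 6.29 RPKM in C9orf72 ASO libraries, 7.44, 7.73 and 4.87 RPKM in control ASO libraries and 9.05, 8.29 and 8.28 RPKM in saline libraries. Each ASO group lay below saline for Abcb1a, at -0.47 (SE 0.14, adjusted p = 0.222) for the C9orf72 ASO and -0.38 (SE 0.14, adjusted p = 0.794) for the control ASO, which was -0.17 (SE 0.07) without control ASO replicate 3. Slco1c1, a thyroid hormone carrier, averaged 8.54 ± 0.434 RPKM after the C9orf72 ASO and 10.5 ± 1.26 RPKM after saline, with no overlap, at -0.30 (95% interval -0.53 to -0.06, adjusted p = 0.268). Abcb1b, a close copy of Abcb1a, averaged 2.30 ± 0.19 RPKM after the C9orf72 ASO and 2.68 ± 0.198 RPKM after saline (SD, n = 3 each), and reads that fit both genes make either value uncertain.

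Mfsd2a, a lipid carrier that also restrains vesicle traffic across the barrier, was at 8.98, 11.6 and 10.5 RPKM in C9orf72 ASO libraries, 9.84, 11.8 and 9.52 RPKM in control ASO libraries and 10.1, 11.2 and 12.3 RPKM in saline libraries. The 3 groups overlapped, and the interval of its log2 fold change against saline was -0.36 to 0.12 for the C9orf72 ASO. Abcg2, a second drug efflux pump, averaged 8.02 ± 0.504 RPKM after the C9orf72 ASO and 8.14 ± 0.333 RPKM after saline, and Slc16a1, a carrier of lactate and ketone bodies, 24.9 ± 0.325 against 25.4 ± 1.72 RPKM. Their intervals were -0.19 to 0.14 and -0.18 to 0.12. Slco1a4, a carrier of organic anions, averaged 19.9 ± 1.5 against 21.6 ± 2.28 RPKM with an interval of -0.35 to 0.13. Bsg, the chaperone of lactate carriers and the most abundant of the 36 genes, was at 133, 121 and 137 RPKM in C9orf72 ASO libraries, 126, 127 and 112 RPKM in control ASO libraries and 164, 126 and 147 RPKM in saline libraries. Saline replicate 1 was the highest of the 9 for Bsg, and the groups overlapped.

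Of the 5 transcription factors, 4 were lower at an unadjusted p under 0.05 after the C9orf72 ASO than after saline, against 10.2% of all genes. Their median log2 fold change was -0.53, against -0.03 over all genes tested. Erg, an ETS factor that keeps endothelial identity, was at 1.26, 1.28 and 1.76 RPKM in C9orf72 ASO libraries, 1.97, 2.21 and 1.59 RPKM in control ASO libraries and 2.54, 1.85 and 2.04 RPKM in saline libraries. Its C9orf72 ASO values lay below saline and overlapped the control ASO, at -0.55 against saline (SE 0.16, adjusted p = 0.213, limma). Lef1, a nuclear partner of beta-catenin, was at 1.39, 1.52 and 2.18 RPKM in C9orf72 ASO libraries, 2.57, 2.26 and 2.00 RPKM in control ASO libraries and 2.86, 2.21 and 2.34 RPKM in saline libraries. C9orf72 ASO replicate 3 of Lef1 came close to saline replicate 2, and the log2 fold change was -0.53 (SE 0.16, adjusted p = 0.222). Sox18, a vascular SOX factor, was at the floor of 0.1 in C9orf72 ASO replicate 1 and at 0.922 and 0.932 RPKM in the other C9orf72 ASO libraries, at 1.63, 1.28 and 1.31 RPKM in control ASO libraries and at 2.10, 1.38 and 1.33 RPKM in saline libraries. All 3 C9orf72 ASO values of Sox18 lay below the other 6, and the log2 fold change of -1.49 (SE 0.52, adjusted p = 0.266) was -0.96 (SE 0.22, adjusted p = 0.121) with floor values raised to 0.5 RPKM. Sox17, its relative in arteries, averaged 1.10 ± 0.13 RPKM after the C9orf72 ASO and 1.48 ± 0.229 RPKM after saline (SD, n = 3 each). Foxq1, a forkhead factor of brain endothelium, averaged 1.13 ± 0.0909 against 1.15 ± 0.166 RPKM, with an interval of -0.30 to 0.26.

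Across the 36 genes, fold changes for the C9orf72 ASO against saline ran with the level of the gene (r = 0.52 with log2 mean RPKM, over genes measured in the same 9 libraries), so that the low genes had the more negative values. They did not run with exon length (r = 0.01). Both values include Sox18 and Icam2, low genes whose fold changes rest on a library at the floor. For the control ASO against saline, r with log2 mean RPKM was 0.02. With log2 exon length, r for that comparison was -0.10 over the 36 genes, but 0.22 over all genes tested with a length. For the C9orf72 ASO against the control ASO the values with exon length were 0.06 and -0.23. Over all genes r with exon length was -0.04 for the C9orf72 ASO against saline. Means over the 9 libraries spanned 0.637 RPKM (Icam2) to 133 RPKM (Bsg), with 10 genes under 2 RPKM, 17 at 2 to 10 RPKM and 9 at 10 RPKM or more.

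The control ASO was set against saline to measure what an oligonucleotide injection does without lowering the target. No gene of the 36 passed the threshold (limma), as was so for all but 0.00693% of genes. The control ASO means were 72% (Pecam1) or more of the saline means, with a median of 85.5%, and 34 of 36 lay below saline, where 57.4% of all genes had a log2 fold change below 0. At an unadjusted p under 0.05, 10 of 36 were lower, against 3.98% of all genes, and 0 higher, against 1.37%. With length and GC trends removed from each library 11 were lower, against 2.53% of all genes. In 4 (Pecam1, Ptprb, Abcb1a and Ly6a) the control ASO values lay entirely below saline, as in 7.15% of all genes, and in 0 entirely above, as in 3.16%. The median log2 fold change was -0.21, against -0.02 over all genes. The smallest p was that of Ly6a, at -0.26 (SE 0.08, adjusted p = 0.794), followed by Pecam1 at -0.48 (SE 0.16, adjusted p = 0.794). Bsg and Emcn were at -0.25 (SE 0.10) and -0.40 (SE 0.16), and Cldn5 at -0.44 (95% interval -0.83 to -0.04). Slc16a1 and Foxq1 were the genes with means above saline, at 0.05 (95% interval -0.10 to 0.20) and 0.09 (95% interval -0.18 to 0.37). This comparison rested on single libraries. The count of 10 was 1 when saline replicate 1 was left out (1.18% of all genes), 2 when control ASO replicate 3 was (2.04%), and 16 when replicate 2 of the control ASO was (3.19%). With saline replicate 1 and control ASO replicate 3 both left out the count was 0, against 0.845% of all genes, and the median was -0.02. Abcb1a then stood at -0.13 (SE 0.08), Pecam1 at -0.14 (SE 0.10), Cldn5 at -0.15 (SE 0.17) and Flt1 at -0.02 (SE 0.09).

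**Figure D3:**
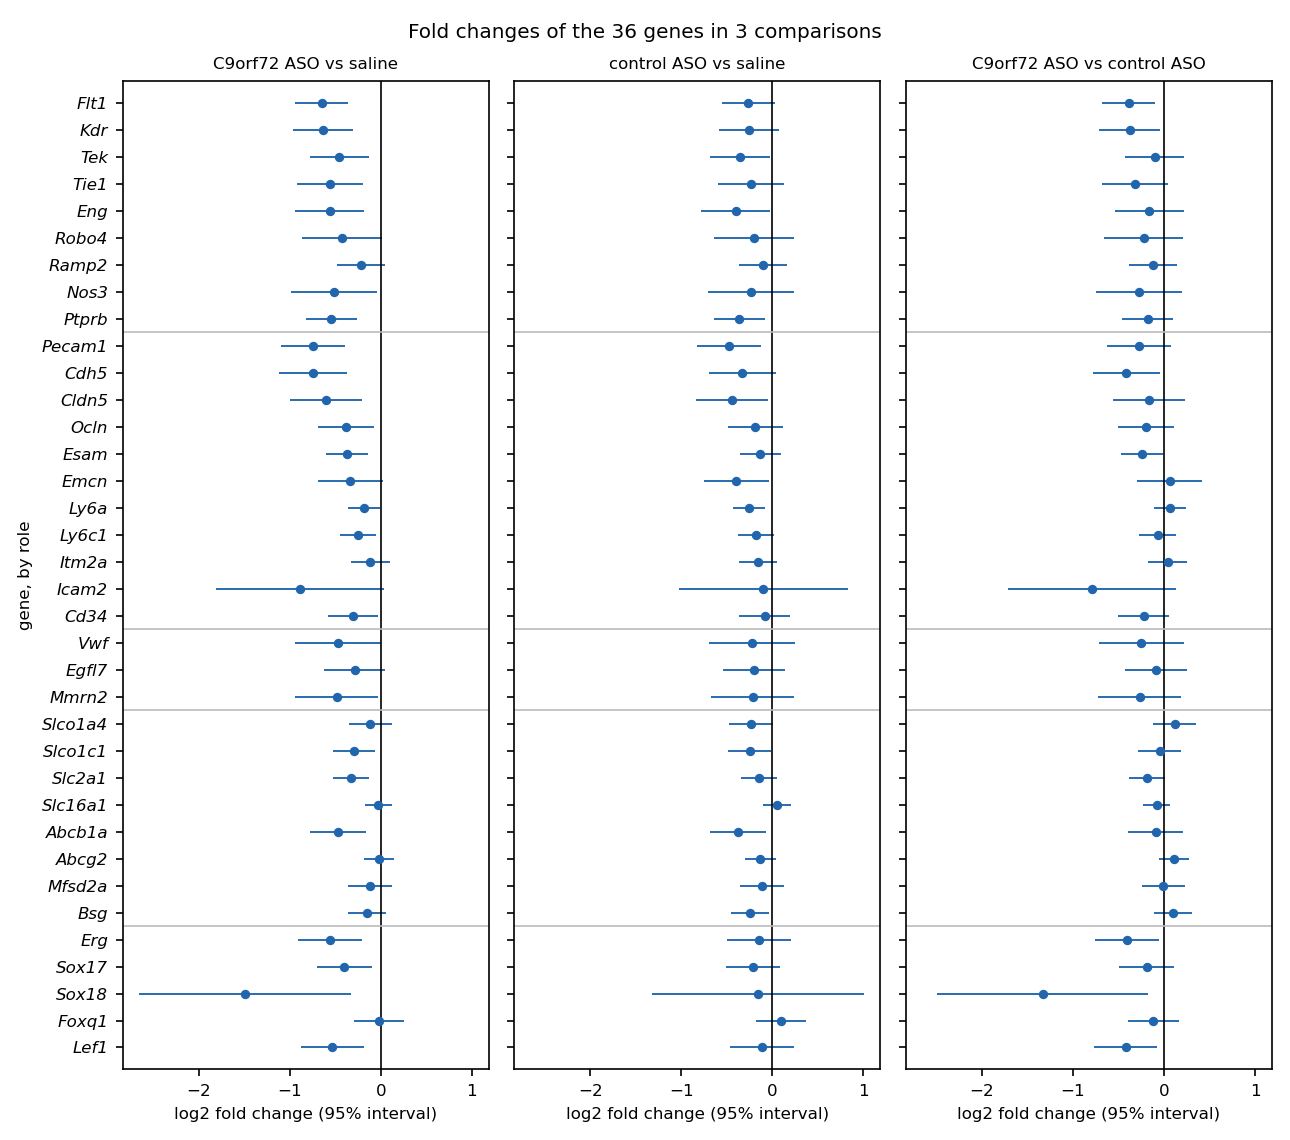
Log2 fold change with its 95% interval (limma, unadjusted) of each of the 36 genes, grouped by role, for the C9orf72 ASO against saline, the control ASO against saline and the C9orf72 ASO against the control ASO. Against saline the C9orf72 ASO points all lie left of 0, from -1.49 for Sox18 to -0.02; the wide intervals of Sox18 and Icam2 come with a library at the floor.

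The C9orf72 ASO was then set against the control ASO, the test of whether the 2 oligonucleotides differ. No gene of the 36 passed the threshold, where 0.0693% of all genes did (limma), 0.0347% lower and 0.0347% higher. The log2 fold change was below 0 in 30 of 36, against 54.1% of all genes. At an unadjusted p under 0.05, 7 of 36 were lower (7.71% of all genes) and 0 higher (6.39% of all genes): Flt1, Lef1, Erg, Sox18, Kdr, Cdh5 and Esam. The C9orf72 ASO values lay entirely below the control ASO for 3 genes, Kdr, Tie1 and Sox18, as in 11.8% of all genes, and entirely above for 0, as in 10.1%. Flt1 had a log2 fold change of -0.39 (SE 0.13, 95% interval -0.68 to -0.09, adjusted p = 0.268), Lef1 of -0.42 (SE 0.16, adjusted p = 0.29), Erg of -0.41 (SE 0.16, adjusted p = 0.302) and Cdh5 of -0.41 (SE 0.17, adjusted p = 0.314). Kdr was at -0.38 (SE 0.15, adjusted p = 0.306) and Sox18 at -1.33, or -0.80 with floor values raised. The median of the 36 was -0.18, against -0.01 over all genes, with a median of -0.41 for transcription factors and -0.03 for transporters. Bsg, Slco1a4, Abcg2, Ly6a, Itm2a and Emcn had log2 fold changes above 0, of 0.04 to 0.12. The count of 7 was 2 when C9orf72 ASO replicate 1 was left out (4.08% of all genes), 1 when replicate 2 of that group was (6.66%), and 11 when replicate 3 was (10.1%). It was 0 when control ASO replicate 1 was left out (5.94% of all genes), 3 when replicate 2 of that group was (7.39%), and 15 when replicate 3 was (4.41%). With length and GC trends removed from each library the count was 5, against 7.17% of all genes. Flt1 then stood at -0.29 (SE 0.15, adjusted p = 0.404, limma) and was no longer among them. The 3 comparisons share libraries in pairs, so that a library that stands apart enters more than 1 of them.

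Other genes of vessels were counted from lists drawn up by role. At an unadjusted p under 0.05 (limma), 10.2% of all genes were lower after the C9orf72 ASO than after saline and 3.79% higher. The median over all genes tested was -0.03. Of 18 further endothelial identity genes, 12 were lower and 1, Ctla2a, higher at an unadjusted p under 0.05 after the C9orf72 ASO than after saline, with a median log2 fold change of -0.35 and 0 past the threshold (limma). Adgrf5, an adhesion receptor of endothelium, was at 5.12, 4.80 and 4.78 RPKM in C9orf72 ASO libraries, 6.32, 5.78 and 4.57 RPKM in control ASO libraries and 7.95, 6.77 and 6.57 RPKM in saline libraries. Control ASO replicate 3 was again the lowest of the 9. Adgrf5 had -0.52 (SE 0.11, adjusted p = 0.116) and Cyyr1, a membrane protein gene, -0.53 (SE 0.12, adjusted p = 0.131). Against the control ASO the list had a median of -0.20, with Spock2 at -0.27 (adjusted p = 0.246) and Sema3g at -0.44 (adjusted p = 0.257), and the control ASO against saline had -0.19, which was -0.10 without saline replicate 1, -0.12 without control ASO replicate 3 and -0.03 without both. Spock2 averaged 252 RPKM over the 9 libraries, and Sema3g 1.17 RPKM. Which cells hold the RNA of a listed gene cannot be told from whole tissue, here or in the lists below. Of 13 further endothelial transcription factors 4 were lower, with a median of -0.21. Gata2 was at 0.749, 0.845 and 0.956 RPKM in C9orf72 ASO libraries, 1.24, 1.45 and 0.962 RPKM in control ASO libraries and 1.58, 1.46 and 1.36 RPKM in saline libraries, with no overlap of the C9orf72 ASO with either control group. It stood at -0.73 against saline (SE 0.15, adjusted p = 0.113), and Epas1, a hypoxia-inducible factor, at -0.28 (SE 0.07, adjusted p = 0.182). Against the control ASO Fli1, an ETS relative of Erg, was at -0.36 (SE 0.10, adjusted p = 0.243).

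The signalling lists were mixed. They are set beside 10.2% of all genes lower and 3.79% higher after the C9orf72 ASO than after saline. Of 22 genes of VEGF, angiopoietin, Notch and TGF-beta signalling tested, 5 were lower and 1 higher after the C9orf72 ASO than after saline at an unadjusted p under 0.05, with a median of -0.12. The higher one was Apold1, an endothelial early response gene, at 2.93, 3.14 and 3.21 RPKM in C9orf72 ASO libraries, 1.32, 2.29 and 1.46 RPKM in control ASO libraries and 1.6, 1.5 and 2.14 RPKM in saline libraries. All 3 C9orf72 ASO values of Apold1 lay above the other 6, at 0.81 against saline (SE 0.18, adjusted p = 0.131, limma) and 0.87 against the control ASO (SE 0.18, adjusted p = 0.168). Pdgfb, the endothelial signal that recruits pericytes, averaged 1.87 ± 0.079 RPKM after the C9orf72 ASO and 2.65 ± 0.511 RPKM after saline (-0.46, adjusted p = 0.201), and Apln, a peptide ligand, stood at -0.26 against the control ASO (adjusted p = 0.17). Of 18 Wnt and beta-catenin genes 7 were lower and 1 higher, with a median of -0.20. The higher one was the ligand Ndp, at 0.25 against saline (SE 0.06, adjusted p = 0.173) and 0.26 against the control ASO (SE 0.06, adjusted p = 0.2), while Tcf7l1 had -0.36 against saline (adjusted p = 0.192) and Tcf7l2 had -0.36 against the control ASO (adjusted p = 0.247). For the control ASO against saline, the smallest p were those of Reck (-0.30) and Apcdd1 (-0.38) in the Wnt list, adjusted p = 0.794 for both.

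Of 17 further barrier transporters and receptors, 11 were lower and 1, the transferrin receptor Tfrc, higher at an unadjusted p under 0.05, with a median of -0.21. For the lists of this paragraph too, 10.2% of all genes were lower and 3.79% higher for the C9orf72 ASO against saline. Ctla2a and Tfrc are named after their values were seen. Slc7a5, the carrier of large neutral amino acids, was at 12.4, 12.7 and 14.4 RPKM in C9orf72 ASO libraries, 16.6, 16.4 and 16.2 RPKM in control ASO libraries and 16.5, 17.0 and 16.9 RPKM in saline libraries. Its C9orf72 ASO libraries lay below all 6 others, which were close together, at -0.35 against saline (SE 0.06, adjusted p = 0.0689, limma) and -0.32 against the control ASO (SE 0.06, adjusted p = 0.115). Slc38a3, a glutamine carrier, was at -0.26 against saline (adjusted p = 0.152) and Slc7a1, a carrier of cationic amino acids, at -0.23 against the control ASO (adjusted p = 0.24). The 11 further tight and adherens junction genes had a median of -0.01 and 3 lower, with Lsr, a tricellular junction protein, at -0.58 (adjusted p = 0.207) and Cgnl1, a junction scaffold, at -0.20 (adjusted p = 0.275). Of 18 genes of activated endothelium and vesicle transport 9 were tested and 1, Cavin1, a caveolar coat protein, was lower (-0.43, adjusted p = 0.234). Icam1, which binds leukocytes, was at 0.579, 0.583 and 0.724 RPKM in C9orf72 ASO libraries but at the floor in 2 control ASO libraries and 2 saline libraries, whose other values were 0.51 and 0.581 RPKM. Sele, Selp, Ccl2, Lcn2, Lrg1 and Ch25h were not analysed here.

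**Figure D4:**
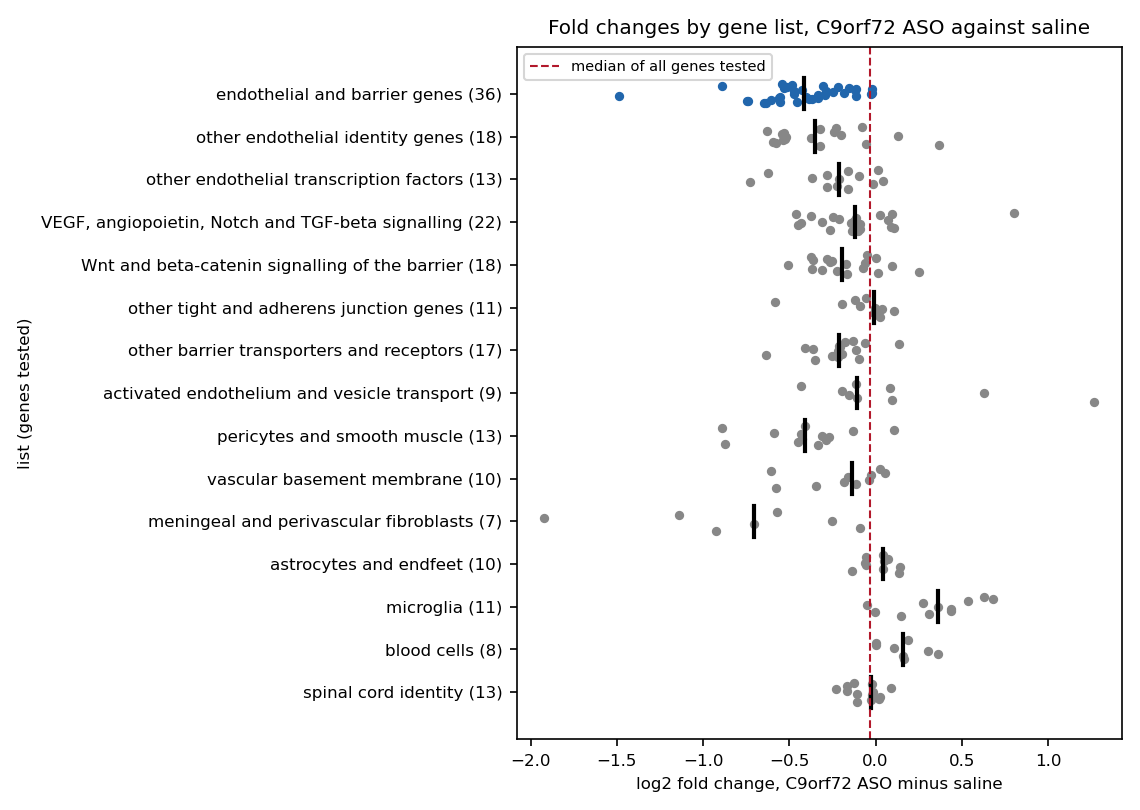
Log2 fold change of each tested gene (points) for the C9orf72 ASO minus saline, by list, with the median of each list as a black bar and the median of all 14430 genes tested as a dashed line. The 36 endothelial and barrier genes have a median of -0.41 and pericytes and smooth muscle the same, microglia 0.36 and astrocytes 0.04; the lowest points of the fibroblast list are genes with libraries at the floor.

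Markers of other cells differed between these groups too. The counts lower below stand beside 10.2% of all genes lower after the C9orf72 ASO than after saline. Of 13 tested genes of pericytes and smooth muscle, the cells that wrap vessels, 11 were lower after the C9orf72 ASO than after saline at an unadjusted p under 0.05, with a median of -0.41, and the sum of 14 genes was 49.62 to 55.49 RPKM in C9orf72 ASO libraries, 54.95 to 69.2 RPKM in control ASO libraries and 72.35 to 92.66 RPKM in saline libraries. Rgs5, a pericyte gene, was at 23.2, 20.3 and 18.9 RPKM in C9orf72 ASO libraries, 32.2, 34.3 and 21.2 RPKM in control ASO libraries and 46.4, 34.0 and 34.9 RPKM in saline libraries. Saline replicate 1 was highest and control ASO replicate 3 lowest within its group, at -0.87 for the C9orf72 ASO against saline (SE 0.17, adjusted p = 0.0996, limma). Abcc9, a potassium channel subunit of pericytes, had -0.45 (SE 0.09, adjusted p = 0.101). The 10 genes of the vascular basement membrane had a median of -0.14, with Col4a1 at -0.58 (adjusted p = 0.12) and Hspg2 at -0.61 (adjusted p = 0.207). Of 7 tested genes of meningeal and perivascular fibroblasts 2 were lower (Lum and Igf2), the median was -0.70 (4 of the 7, Lum, Ogn, Col1a1 and Col3a1, had libraries at the floor), and the sum of 9 genes was 10.97 to 15.45 RPKM in C9orf72 ASO libraries, 11.23 to 16.77 RPKM in control ASO libraries and 16.65 to 17.63 RPKM in saline libraries. Lum was at the floor in all C9orf72 ASO libraries and at 0.785, 0.563 and 0.64 RPKM in saline libraries.

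Of 11 microglia genes tested, 8 were higher and 0 lower after the C9orf72 ASO than after saline at an unadjusted p under 0.05. Of all genes 3.79% were higher and 10.2% lower. In this list 1 gene passed the threshold, where 0.0347% of all genes did so with higher values. Csf1r and Tmem119 had log2 fold changes of -0.05 and -0.00. The median of the list was 0.36, and the sum was 231.3 to 244.8 RPKM in C9orf72 ASO libraries, 181.8 to 196.6 RPKM in control ASO libraries and 178.2 to 203 RPKM in saline libraries. Tyrobp, an adaptor of microglial receptors, passed the threshold over all genes against saline (0.68, SE 0.10, adjusted p = 0.031, limma). The 10 astrocyte genes had a median of 0.04, with 0 lower and 1, Slc1a3, higher, and a sum of 1643 to 1733 RPKM in C9orf72 ASO libraries, 1679 to 1726 RPKM in control ASO libraries and 1549 to 1728 RPKM in saline libraries. Blood cell genes had a median of 0.16 over 8 genes, and their sum reached 2930 RPKM in control ASO replicate 1, against 727.1 to 1266 RPKM in the other 8 libraries. S100a9, a neutrophil gene, was at the floor in all C9orf72 ASO and saline libraries and at 3.68, 2.48 and 1.52 RPKM in control ASO libraries, and passed the threshold in both comparisons with the control ASO (adjusted p = 0.00115 against the C9orf72 ASO and 0.00574 against saline, limma). Of all genes, 0.0347% passed with lower values for the C9orf72 ASO against the control ASO. For the control ASO against saline, 0.00693% passed with higher values. The 13 spinal cord genes had a median of -0.03 and none at an unadjusted p under 0.05 against saline. With saline replicate 1 and control ASO replicate 3 both left out, the medians for the C9orf72 ASO against saline were -0.30 in pericyte genes and 0.40 in microglia genes. Whether any of these cell type differences has a part in those of the endothelial genes was not tested.

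**Figure D5:**
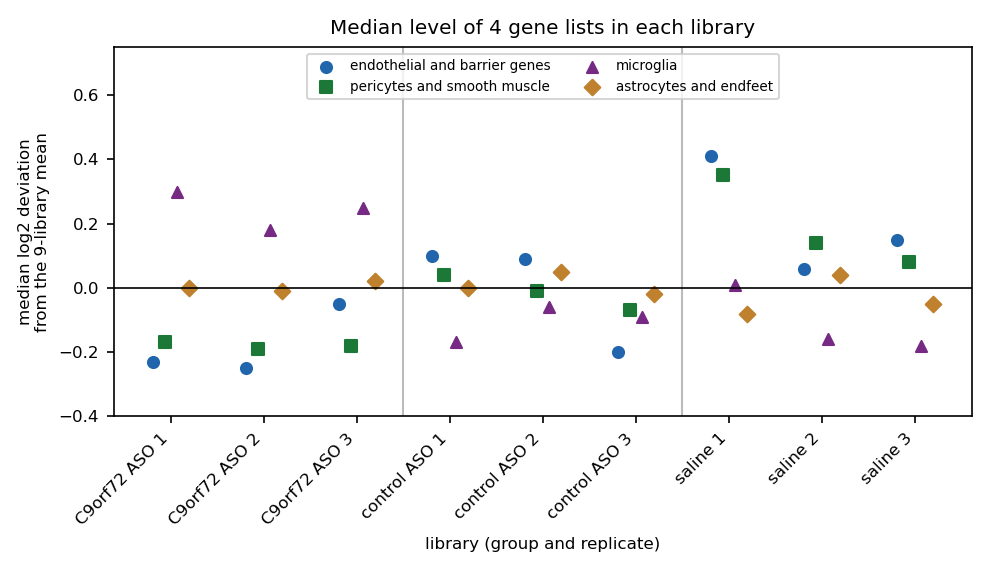
Median over the genes of 4 lists of the log2(RPKM + 0.1) deviation from the mean of the 9 libraries, for each library. Endothelial and barrier genes stand at -0.23, -0.25 and -0.05 in C9orf72 ASO libraries, 0.10, 0.09 and -0.20 in control ASO libraries and 0.41, 0.06 and 0.15 in saline libraries; pericyte genes are lowest and microglia genes highest in the C9orf72 ASO libraries, and astrocyte genes stay near 0.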

How the data were processed

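The submitters' processing notes name cutadapt 1.2.1, GSNAP and the genome build mm9. Libraries were strand-specific, per the labels' protocols. The counting method and annotation are not stated in those notes. The table the authors deposited was taken as RPKM, with 0.1 read as any value under 0.5. Its header names no unit: for genes up to 350 bases, value times exon length fell within 0.1 of a whole read in 58.3% to 70.7% of values at 1 step per library, which gives the depth. Gene symbols matched 14321 of 14831 IDs.

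The 14430 genes that reached 0.5 RPKM in 3 or more libraries entered 1 model of all 9 libraries on log2(RPKM + 0.1). It was fitted by limma 3.58.1 (R 4.3.3, statmod 1.5.0) with mean trend and robust estimation, Benjamini-Hochberg adjustment and a threshold of 0.05. The test was run on simulated data, where 5.4% of the calls were false. Noise was drawn there for each gene on its own, so libraries that shift many genes together were not covered. The pseudocount understates fold changes of low genes, and the floor overstates those of genes that reach it. The members and lists were chosen with earlier results of these data known. Values in every library are given for members past the threshold, for the 6 genes with the smallest p in each comparison and for Cldn5, Slc2a1, Pecam1, Flt1, Abcb1a, Mfsd2a and Vwf. From other lists the genes past the threshold or, with none, those with the 2 smallest p could be named, and not every such gene is printed for each comparison. Alternatives covered the pseudocount, filter, floor, scaling, length and GC trends, test settings, samples in the fit and each library left out; leaving out 2 libraries together was chosen after seeing the data.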

Additional observations from a re-analysis of the deposited data

How the results depend on the processing

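No paired analysis was possible because the labels give the libraries no replicate numbers; the numbers used here follow the order of the sample records and pair nothing. The medians of the 36 genes were below 0 under every alternative run, and scaling by the median log ratio or by quantiles gave -0.38 each for the C9orf72 ASO against saline. Pseudocount 1 gave -0.27, -0.15 and -0.12 for the C9orf72 ASO against saline, the control ASO against saline and the C9orf72 ASO against the control ASO. Without 1 library at a time, members past the threshold numbered 0 to 3 for the C9orf72 ASO against saline and 0 in the other comparisons, and members lower at an unadjusted p under 0.05 numbered 15 to 28 for the C9orf72 ASO against saline, 1 to 16 for the control ASO against saline and 0 to 15 for the C9orf72 ASO against the control ASO, where 6.18% to 14.6%, 1.18% to 9.31% and 4.08% to 10.1% of all genes were lower. The medians ranged from -0.48 to -0.33, from -0.28 to -0.11 and from -0.29 to -0.11 in the same order. With limma without trend and robust estimation, 5 members were lower for the control ASO against saline (3.93% of all genes), against 10. With saline replicate 1 and control ASO replicate 3 both left out, 2 members passed for the C9orf72 ASO against saline, 16 were lower at an unadjusted p under 0.05 for the C9orf72 ASO against the control ASO (4.94% of all genes), and for the control ASO against saline 0 were lower (0.845%) and the median was -0.02. The cause of these moves was not tested, and the share of all genes past the adjusted threshold with libraries left out is not given here. Sox18 and Icam2 each had a library at the floor, where the level is not known.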
